A study of Mus musculus with 2 samples.

Results

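Arg1 macrophages are the tumour-associated macrophages in these brains that carried transcripts of arginase 1 but not the gene set of the Mmp12 macrophages, the other large macrophage group of the tumour. Members were chosen by their measured UMI counts alone. A barcode was counted as a member when it held at least 3 UMIs (unique molecular identifiers, each standing for 1 captured transcript) of Arg1 and at least 5 of the lysozyme gene Lyz2. Members also held fewer than 5 UMIs of Mmp12, Adamdec1, H2-M2 and Ccl24 together, none of the dendritic cell gene Flt3, and at most 1 each of the microglial pair Tmem119 and Sall1, the T cell pair Cd3e and Cd3d, and the tumour pair Sox2 and Met. By this rule 228 of 9685 cells were members, 187 of 6575 cells in the library labelled knockout and 41 of 3110 cells in the library labelled wild type. The same measured counts chose the cells, so the levels of the genes in the rule are a description.

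The series holds 1 single-cell library from mice with the genotype Cacna1H-/- (label Cav3.2KO) and 1 from C57BL/6 wild-type mice, both taken from the brain on day 24 after implantation of GL261, a glioma line of C57BL/6 origin. Cacna1h encodes Cav3.2, a low-voltage-activated T-type calcium channel, and by its title the study is about such channels in the tissue around the tumour. The sources used here do not give age, sex or the number of animals in each library, and each label has a single library. No difference between the labels therefore has a replicate check, no p-value is given, and every interval covers counting error only.

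Arginase 1 hydrolyses arginine to ornithine and urea, and ornithine feeds the synthesis of polyamines and proline. The enzyme competes for arginine with inducible nitric oxide synthase (Nos2), and arginine depletion by myeloid cells limits T cell proliferation. In gliomas, bone marrow-derived monocytes enter the tumour, lose Ly6c2 and Ccr2 as they mature, and can take on Arg1 with genes of wound healing, hypoxia and angiogenesis.

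The 2 libraries held 8369 barcodes and 103261208 mouse UMIs under the knockout label, and 7382 barcodes and 54556333 mouse UMIs under the wild type label. Members had a median of 11859 UMIs (2402 to 32435) and 3430 genes under the knockout label, and 9431 UMIs (3719 to 26535) and 2978 genes under the wild type label. Their median mitochondrial share was 1.19% and 1.58%. The libraries shared 21 barcodes, of which 0 belonged to members. Cacna1h went against the label: 13 UMIs lay in 13 of 187 members of the library labelled knockout (6.95%), against 0 of 41 members of the library labelled wild type, which allows a share of up to 8.60%. In the T cell gate, 47 UMIs were found under the knockout label and 0 under the wild type label. The libraries are therefore named by their labels throughout, and every direction below is a direction between labels. Sex-linked transcripts differed as well. Under the knockout label 150 members held Xist UMIs and no UMI of a Y-linked gene (Kdm5d, Eif2s3y, Uty or Ddx3y), 16 held Y-linked UMIs alone, 3 held both and 18 neither. Under the wild type label 37 members held Y-linked UMIs alone, 4 neither, and 0 any Xist UMI. Label, sex and animal cannot be told apart over all members, so values in the Y-linked members alone are given beside several of the results.

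Of the 6 marker genes of the group, 4 play no part in the rule. They are thrombospondin 1 (Thbs1), an adhesive matrix protein; Cd14, the co-receptor for lipopolysaccharide; interleukin 1 beta (Il1b); and Inhba, which encodes the activin A subunit. Levels are given as UMIs per 1000000 mouse UMIs (CPM), summed over the cells of a gate. Arg1 (chr10:24915221-24927484, minus strand, mm10) was at 1683 CPM in members under the knockout label and 1629 CPM under the wild type label. Thbs1 was at 419 and 532 CPM, Cd14 at 766 and 554 CPM and Il1b at 3876 and 3497 CPM, in the same order of labels. Inhba was the uneven one, with 279 UMIs in 43 of 187 members (119 CPM) under the knockout label and 14 UMIs in 5 of 41 (30.5 CPM) under the wild type label. All 6 markers passed 20 CPM in both libraries. Their sum was 12740 CPM in members under the knockout label, against 7047 CPM in the Mmp12 gate and 12778 CPM in the Ly6c2 gate of that library. Under the wild type label it was 12832 CPM in members, against 5184 CPM in the Mmp12 gate and 12707 CPM in the Ly6c2 gate. The sum includes Arg1 and Lyz2, which the rule uses, and is a description. In T cells it was 71.3 CPM under the knockout label and 38.8 CPM under the wild type label. Gene by gene, the 4 markers outside the rule did not all stand above the Ly6c2 gate. Under the knockout label that gate held Thbs1 at 334.8 CPM, Cd14 at 638 CPM, Il1b at 3464 CPM and Inhba at 87.2 CPM. Under the wild type label it held Thbs1 at 217 CPM, Cd14 at 563 CPM, Il1b at 4210 CPM and Inhba at 110 CPM. Il1b and Inhba were therefore lower in members than in the Ly6c2 gate under the wild type label. Cd14 was not above that gate there either, with a log2 ratio of -0.025 (-0.263 to 0.212). Of the 4, only Thbs1 stood above it under the wild type label.

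The reference table of promoters held windows for 3 of the 6 marker genes. Those of the secreted inflammatory factors Il1b and Inhba are shown because both are among the listed marker genes and Inhba differed in level between the labels. Each window is the 250 bases before the RefSeq transcript start (GRCm38.p6), 5′ to 3′ on the strand of the gene. Il1b lies on the minus strand at chr2:129371140-129371389 and Inhba on the plus strand at chr13:16011601-16011850. Capitals mark matches on either strand to 4 motifs. These were TTGCNNAA for C/EBP factors, the letters TGANTCA for AP-1, the letters AGGAAG as the core bound by ETS factors, and the TATA box with the letters TATAAA.
Il1b: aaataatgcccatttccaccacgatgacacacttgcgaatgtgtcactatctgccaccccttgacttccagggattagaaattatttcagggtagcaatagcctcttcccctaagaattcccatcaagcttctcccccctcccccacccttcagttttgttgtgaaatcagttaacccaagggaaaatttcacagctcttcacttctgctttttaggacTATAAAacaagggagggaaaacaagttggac
Inhba: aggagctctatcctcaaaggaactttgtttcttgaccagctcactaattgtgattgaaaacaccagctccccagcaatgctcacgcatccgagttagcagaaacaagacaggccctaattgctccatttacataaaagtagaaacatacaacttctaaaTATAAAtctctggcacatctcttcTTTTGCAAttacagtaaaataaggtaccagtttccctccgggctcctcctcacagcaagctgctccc
The Il1b window held TATAAA starting 31 bases before the start. The Inhba window held TATAAA 91 bases before the start and a C/EBP match on the reverse strand 67 bases before it. Of 32851 promoter windows of this length, 9.56% held a C/EBP match, 6.75% an AP-1 match, 29.5% the ETS core and 12.4% the TATA box. A match describes the letters in the window and nothing more.

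Markers of other cell types were summed over members. The rule itself limits Flt3, Tmem119, Sall1, Cd3d, Cd3e, Sox2 and Met, so the dendritic, microglial, T cell and tumour sums are partly set by the gate. All 10 monocyte and macrophage markers passed 20 CPM, with a sum of 5196 CPM under the knockout label and 4539 CPM under the wild type label. The 10 microglial markers summed to 383 and 488 CPM, against 5358 and 3938 CPM in the microglia gate. Neutrophil markers summed to 97.8 and 74.1 CPM, with Retnlg, Ly6g, Camp and Ngp at 0. T cell markers reached 18.4 CPM under the knockout label and 8.72 CPM under the wild type label, NK cell markers 32.0 and 26.2 CPM, dendritic cell markers 23.9 and 19.6 CPM, and tumour markers 39.3 and 32.7 CPM. Markers of border macrophages, the resident macrophages of meninges and vessels, were uneven between the labels: the 7 genes summed to 149 CPM under the knockout label and 903 CPM under the wild type label. Lyve1 and Cd163 were at 0 in both libraries. Cbr2 was also at 0 under the knockout label, and the list holds Mrc1, Pf4, F13a1 and Folr2, of which monocyte-derived macrophages can also express several. Members with 10 or more such UMIs were 7 of 187 (3.74%) under the knockout label and 10 of 41 (24.4%) under the wild type label, and held 31.6% and 76.3% of these UMIs. B cell markers summed to 372 CPM under the knockout label, where 604 of 828 Igkc UMIs lay in 1 cell, and to 39.2 CPM under the wild type label. Endothelial markers summed to 153 and 58.9 CPM.

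Arg1 itself was not confined to members. Under the knockout label members held 48.5% of the 8118 Arg1 UMIs in kept cells and the Mmp12 gate 19.8%. Under the wild type label they held 31.6% of 2362 Arg1 UMIs, and the Mmp12 gate 38.8%. Cells with at least 3 Arg1 UMIs made up 61 of 207 cells of the Mmp12 gate under the knockout label (29.5%) and 41 of 313 under the wild type label (13.1%). In the microglia gate they made up 36 of 398 cells (9.05%) under the knockout label and 1 of 104 (0.962%) under the wild type label. The background was 1 of 1592 cells in the T cell gate under the knockout label and 1 of 597 under the wild type label.

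**Figure D1:**
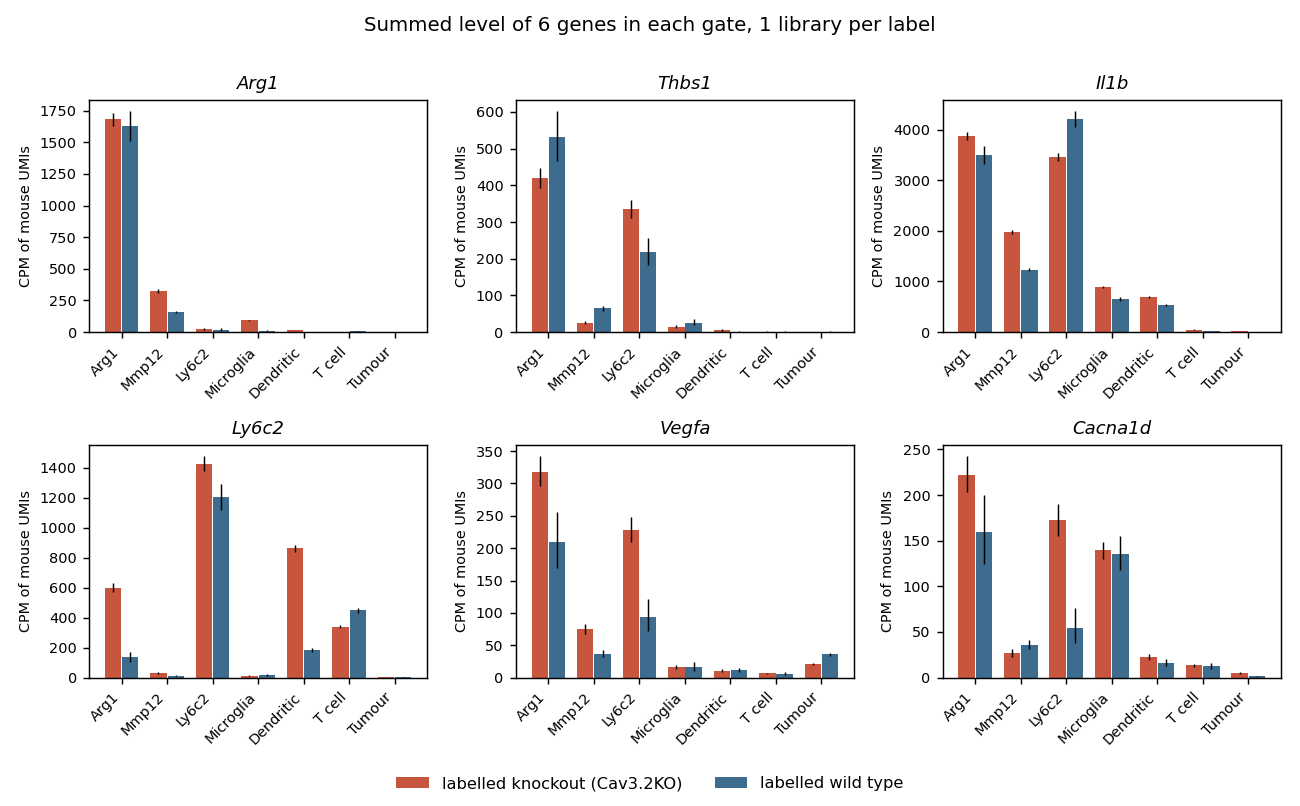
Summed level in CPM of mouse UMIs of Arg1, Thbs1, Il1b, Ly6c2, Vegfa and Cacna1d in the Arg1 macrophages and 6 other gates, with the library labelled knockout left of the library labelled wild type. Bars are sums over cells of 1 library, and lines are exact 95% Poisson intervals. Arg1 is highest in Arg1 macrophages by the rule, Thbs1 stands at 419 and 532 CPM there and at 334.8 and 217 CPM in the Ly6c2 gate, and Cacna1d stands at 222 and 159 CPM.

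Cells just inside and just outside the Arg1 threshold are described here. With 3 or 4 Arg1 UMIs there were 28 members under the knockout label and 11 under the wild type label. With 1 or 2 Arg1 UMIs and all other terms met there were 87 cells under the knockout label and 20 under the wild type label. Under the knockout label, Il1b was at 3101 CPM just inside and 2879 CPM just outside, and Thbs1 at 163 and 256 CPM. Under the wild type label, Il1b was at 3027 CPM just inside and 2552 CPM just outside, and Thbs1 at 279 and 244 CPM. Cd14 and Inhba were lower just inside than just outside in both libraries. Cd14 was at 539 and 655 CPM under the knockout label and 638 and 776 CPM under the wild type label. Inhba was at 9.98 and 47.7 CPM under the knockout label and 7.33 and 94.5 CPM under the wild type label. Its levels just inside rest on 3 UMIs and 1 UMI. Cells that met every other term with no Arg1 UMI numbered 425 under the knockout label and 208 under the wild type label. They held Il1b at 2811 and 2741 CPM, Thbs1 at 175 and 148 CPM, Cd14 at 402 and 330 CPM and Inhba at 45.9 and 35.0 CPM.

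Arg1 macrophages made up 2.84% of kept cells in the library labelled knockout (95% Clopper-Pearson interval 2.46% to 3.28%), against 1.32% under the wild type label (0.948% to 1.78%). The ratio of shares was 2.16 (1.53 to 3.104). Among Lyz2-high cells they were 187 of 1215 (15.4%) under the knockout label and 41 of 709 (5.78%) under the wild type label, a ratio of 2.66 (1.89 to 3.83). The Mmp12 gate was ordered the other way, at 3.15% (2.74% to 3.60%) under the knockout label and 10.1% (9.03% to 11.2%) under the wild type label. The Ly6c2 gate, the monocyte-like cells without the Arg1 level, made up 3.36% and 2.22%.

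The difference in share was not seen in the cells with Y-linked UMIs alone. There, members were 16 of 928 kept cells (1.72%, 0.989% to 2.78%) under the knockout label and 37 of 2077 (1.78%, 1.26% to 2.45%) under the wild type label. The cells with Xist UMIs alone in the library labelled knockout contained 150 members among 3940 (3.81%, 3.23% to 4.45%). Among Lyz2-high cells the shares were 8.47% (16 of 189) in the Y-linked cells under the knockout label, 5.85% (37 of 633) under the wild type label, and 17.2% (150 of 872) in the Xist cells under the knockout label. How far the higher share goes with the label or with the sex or number of the animals cannot be told apart.

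**Figure D2:**
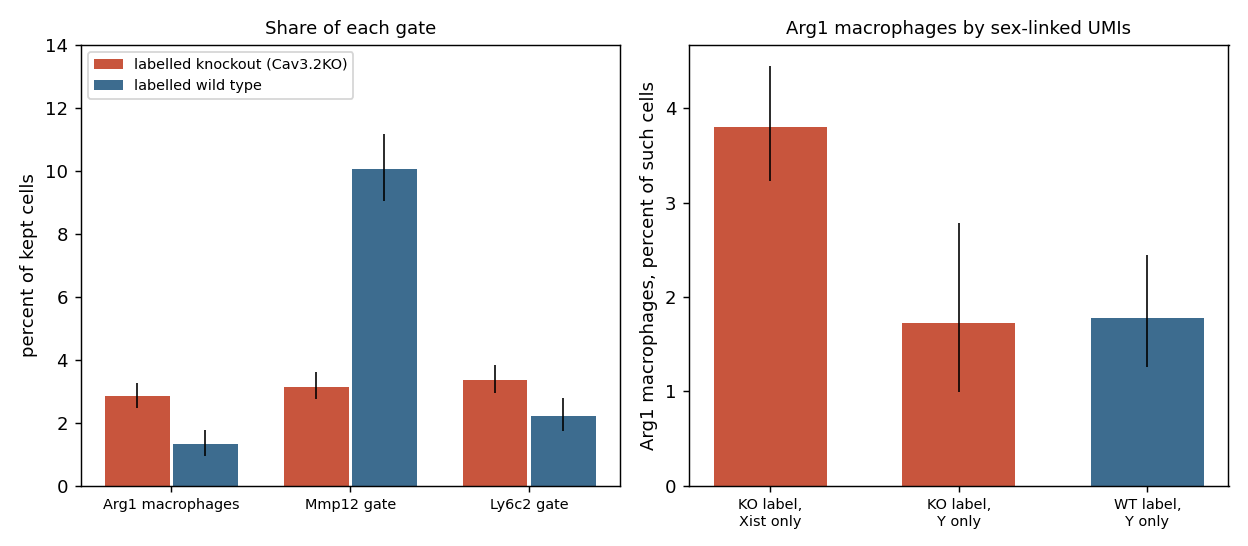
Left, share of kept cells in percent that were Arg1 macrophages, Mmp12 gate cells or Ly6c2 gate cells, in the library labelled knockout (left bar of each pair) and the library labelled wild type. Right, Arg1 macrophages as a percent of cells with Xist UMIs alone or Y-linked UMIs alone; lines are exact 95% binomial intervals. Arg1 macrophages stand at 2.84% and 1.32% over all cells, and at 1.72% and 1.78% among cells with Y-linked UMIs alone.

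Set against the Mmp12 gate of the same library, Arg1 macrophages had the higher levels of monocyte, chemokine and hypoxia genes and the lower levels of cell division genes. Differences of 2-fold or more in both libraries were found among 6490 measured genes, with members higher in 104 (1.6%) and lower in 134 (2.06%). The cells were chosen in these same libraries, so this comparison describes the gates. The Mmp12 gate cells held more UMIs, with medians of 23916 under the knockout label and 18727 under the wild type label.

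Monocyte genes stood well above the Mmp12 gate. Ly6c2, a surface antigen of freshly recruited monocytes, was at 599 CPM in members and 31.3 CPM in the Mmp12 gate under the knockout label (19.2-fold), and at 135 CPM in members and 13.5 CPM in the gate under the wild type label (10.0-fold). Plac8, another gene of classical monocytes, was at 1291 against 89.0 CPM under the knockout label and 704 against 107 CPM under the wild type label. Ccr2, the receptor that draws monocytes towards Ccl2, was at 266 against 36.5 CPM and 464 against 105 CPM. Members were at least 2-fold higher in both libraries in 11 of 18 measured monocyte genes and lower in 0. The median log2 ratio was 1.89 under the knockout label and 2.10 under the wild type label, where the medians over all measured genes were 0.03 and -0.03. The Ly6 genes are close copies of each other, and the counting may have divided reads among them.

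Chemokine genes followed the same order, with 10 of 19 at least 2-fold higher in members in both libraries and 0 lower. Ccl2, which attracts monocytes, was at 136 CPM in members and 26.4 CPM in the Mmp12 gate under the knockout label, and at 329 and 40.7 CPM under the wild type label. Ccl7, a second ligand of Ccr2, was at 76.0 and 9.42 CPM under the knockout label and at 305 and 17.6 CPM under the wild type label. Under the wild type label a single cell held most of the Ccl7 UMIs of members, and the Ccl2 level leaned on its top member. Of the matrix genes, 7 of 19 were higher and 2 lower: Thbs1 stood 16.4-fold and 8.26-fold above the gate, and fibronectin (Fn1) at 637 against 148 CPM and 996 against 124 CPM. Vegfa, the main angiogenic growth factor, was 4.26-fold and 5.69-fold higher, at 318 against 74.7 CPM and 209 against 36.8 CPM.

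Among hypoxia and glycolysis genes, 5 of 27 were at least 2-fold higher in both libraries and 0 lower, and the list medians were 0.67 and 0.61. Hif1a, the oxygen-regulated transcription factor, was at 568 CPM in members against 265 CPM in the Mmp12 gate under the knockout label, and at 416 against 196 CPM under the wild type label. Slc16a3, the lactate exporter, was at 141 against 43.1 CPM and 105 against 37.1 CPM. The other 3 were Bnip3, Hk1 and Tpi1. Of 36 transcription factors measured, 7 were higher: Cebpb, which drives macrophage Arg1 in mice, was at 1501 against 702 CPM and 1535 against 743 CPM, and Klf4, Klf2, Nr4a1, Fosl2, Maf and Hif1a were the others. The calcium channel gene Cacna1d, which encodes an L-type channel, was 8.35-fold and 4.48-fold higher, at 222 against 26.6 CPM and 159 against 35.6 CPM. The other T-type genes, Cacna1g and Cacna1i, had 0 UMIs in members.

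Cell division genes ran the opposite way, with 11 of 19 at least 2-fold lower in members in both libraries and medians of -1.56 and -2.12. Mki67, the proliferation antigen, was at 8.11 CPM in members and 57.9 CPM in the Mmp12 gate under the knockout label, and at 8.72 and 94.9 CPM under the wild type label. Top2a, the topoisomerase of dividing cells, was at 8.54 against 57.5 CPM and 6.54 against 90.5 CPM. Igf1, a growth factor of mature macrophages, was at 1.28 against 50.5 CPM and 6.54 against 94.3 CPM. Of 9 MHC class II genes 2 were at least 2-fold lower in both libraries, with list medians of -0.67 and -0.57 and H2-Ab1 at 6159 against 9908 CPM and 5272 against 7883 CPM. Slc7a2, the cationic amino acid transporter that imports arginine, alone passed 2-fold in both libraries among the 13 measured genes of the arginine list, and it was lower in members: 242 against 529.9 CPM under the knockout label and 69.8 against 294 CPM under the wild type label. Nos2, the inducible nitric oxide synthase, was not among the 13, with 6 UMIs in members and 29 in the gate under the wild type label. It was at 73.4 against 18.4 CPM under the knockout label and 13.1 against 5.01 CPM under the wild type label.

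The Ly6c2 gate was far closer. It holds Lyz2-high cells with at least 3 Ly6c2 UMIs and at most 2 Arg1 UMIs, so Ly6c2 and Arg1 are set by the gates. By the same measure, members were higher in 8 (0.403%) and lower in 30 (1.51%) of 1984 genes. Mrc1, the mannose receptor of scavenging macrophages, differed most, at 58.5 CPM in members and 10.9 CPM in the gate under the knockout label, and 320 against 43.1 CPM under the wild type label (5.37-fold and 7.44-fold). Cells that met every other term with no Arg1 UMI held Mrc1 at 58.8 CPM under the knockout label, the level of members, and 59.2 CPM under the wild type label. The part of the gate's Ly6c2 minimum in this difference was not tested. Under the wild type label, 1 member held 47 Mrc1 UMIs. Gatm, the arginine-using first enzyme of creatine synthesis, was at 592 against 264 CPM and 360 against 101 CPM. Transferrin (Trf) was at 328 against 111 CPM and 386 against 113 CPM, and the lysosomal protease Ctsl at 428 against 198 CPM and 499 against 231 CPM. Trem2, the lipid receptor of phagocytic macrophages, stood at 309 against 164 CPM and 423 against 155 CPM, and was just under 2-fold in the first library.

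Genes lower in members than in the Ly6c2 gate included interferon targets and products of young monocytes. Chil3, a chitinase-like protein of classical monocytes, was at 33.3 CPM in members and 152 CPM in the gate under the knockout label, and 43.6 against 512 CPM under the wild type label. Rsad2 (viperin), an antiviral interferon target, was at 189 against 551 CPM and 122 against 353 CPM, and Ifit3, another, at 94.4 against 339 CPM and 93.7 against 295 CPM. Of 24 measured type I interferon genes, 6 were lower and 0 higher in both libraries, with medians of -0.85 and -1.13. Of 18 monocyte genes, 3 were lower and 0 higher (medians -0.43 and -0.90), and 20 tissue macrophage genes had medians of 0.52 and 0.79 with 1 higher and 1 lower. Plac8 was at 1291 against 2875 CPM and 704 against 2428 CPM. Members therefore lay between the Ly6c2 gate and the Mmp12 gate in Plac8 in both libraries.

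**Figure D3:**
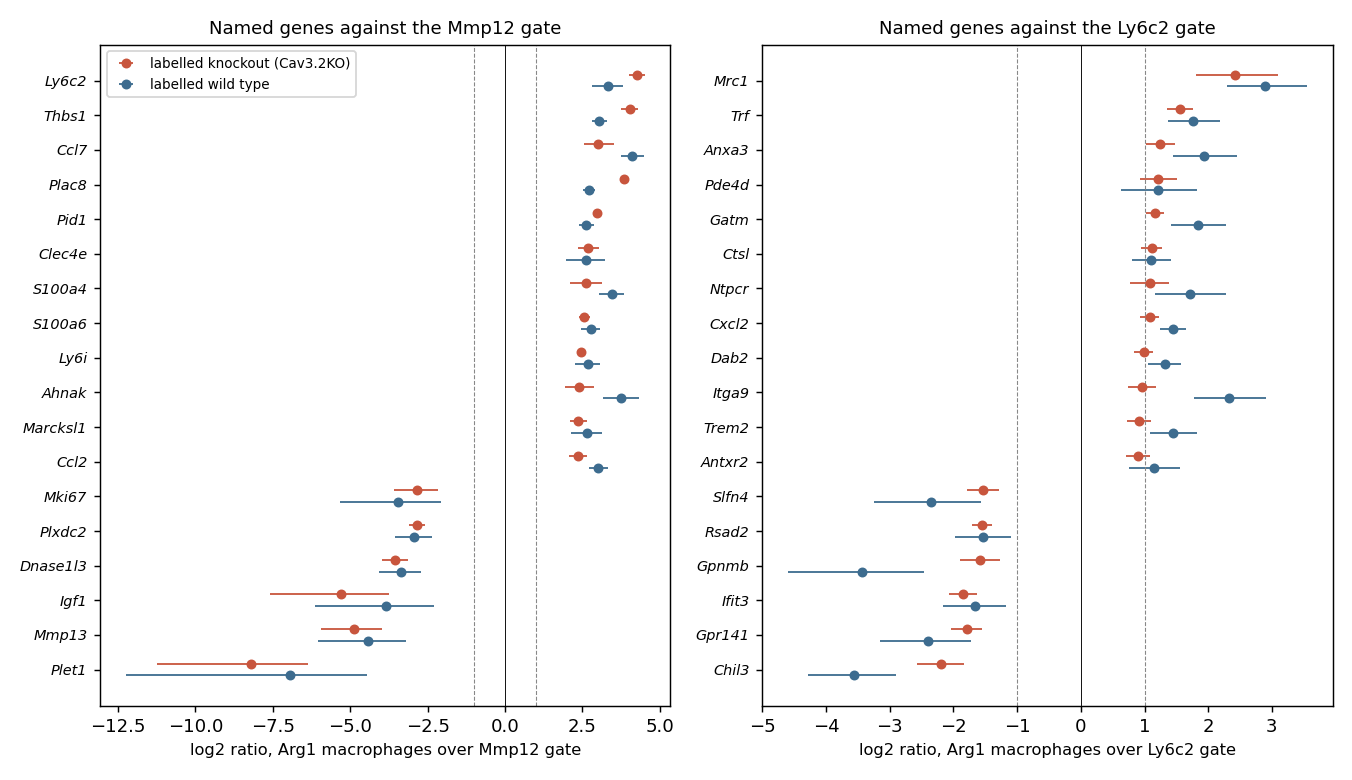
Log2 ratio of Arg1 macrophages over the Mmp12 gate (left) and over the Ly6c2 gate (right) for the genes named by size, with the library labelled knockout above the library labelled wild type. Points are ratios of summed CPM, lines are exact 95% intervals for counting error, and dashed lines mark 2-fold. By the smaller of the 2 ratios, Ly6c2 and Thbs1 lie furthest right against the Mmp12 gate, although Ccl7 lies further right under the wild type label. By the same measure Mrc1 lies furthest right against the Ly6c2 gate, where Rsad2 and Chil3 lie to the left.

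Single members varied widely. Arg1 ranged from 170 to 10537 CPM per member under the knockout label, with a median of 1285 CPM, and from 118 to 10497 CPM with a median of 901 CPM under the wild type label. Ly6c2 was found in 130 of 187 members (69.5%) under the knockout label and 14 of 41 (34.1%) under the wild type label. The complement gene C1qa, a product of differentiated macrophages, was found in 142 (75.9%) and 37 (90.2%). After each cell was thinned to 2000 UMIs, with 0 members left out, Ly6c2 was found in 44.9% and 21.95% and C1qa in 67.9% and 82.9%. The T cell gate, at median depths of 9213 and 8309 UMIs, held C1qa UMIs in 17.1% and 8.71% of cells. It is no background for Ly6c2, which T cells express, and held it in 34.1% and 46.9%. Both genes occurred together in 95 of 187 members under the knockout label and 12 of 41 under the wild type label, and Ccr2 with C1qa in 92 and 29. Mki67 was found in 17 of 187 (9.09%) and 3 of 41 (7.32%) members, below the 26.7% and 30.3% of the T cell gate.

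Within each library, members with the most Arg1 also had higher levels of some chemokine, matrix and hypoxia genes and lower levels of some MHC class II and tissue macrophage genes. Members were ranked by Arg1 CPM. The 46 highest (Arg1-rich) and 46 lowest (Arg1-poor) under the knockout label, with Arg1 at 4100 and 363 CPM, and the 10 highest and 10 lowest under the wild type label, with 5691 and 258 CPM, were summed with Arg1 left out of the totals. Median depth was 10377 UMIs in the Arg1-rich and 13730 in the Arg1-poor members under the knockout label, and 8495 and 14290 under the wild type label; its part in these differences was not tested. With a limit of 1.5-fold in both libraries, the Arg1-rich members were higher in 63 (3.45%) and lower in 30 (1.64%) of 1827 measured genes. This ranks cells by a gene of the rule and is a description.

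Thbs1 was at 874 CPM in Arg1-rich and 144 CPM in Arg1-poor members under the knockout label, and at 919 and 233 CPM under the wild type label. Fn1 was at 809 and 294 CPM under the knockout label and at 1262 and 440 CPM under the wild type label. Ifitm1, an interferon-induced membrane protein, was at 764 and 190 CPM and at 177 and 25.9 CPM. Cacna1d was at 297 against 95.1 CPM and 321 against 45.2 CPM, and the integrin Itgam (CD11b) at 384 against 184 CPM and 520 against 233 CPM. Ccl2 reached 214 CPM in Arg1-rich and 85.9 CPM in Arg1-poor members under the knockout label, and 1018 and 25.9 CPM in the 2 sets of 10 cells under the wild type label. Those last 2 Ccl2 levels rest on 92 and 4 UMIs. Between the labels, the Ccl2 log2 ratio was -1.28 over all members and -0.35 without its top member in each library. A single cell thus weighs on the wild type level. Cxcl2, a neutrophil attractant, was at 673 against 241 CPM and 2181 against 608 CPM.

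The genes that were lower with Arg1 included some of antigen presentation and of the mature macrophage. Ciita, the transactivator of the MHC class II genes, was at 71.2 CPM in Arg1-rich and 150.3 CPM in Arg1-poor members under the knockout label, and at 44.3 and 123 CPM under the wild type label. The last 2 Ciita levels rest on 4 and 19 UMIs, and the interval of their log2 ratio, -3.49 to 0.118, includes no difference. H2-Ab1 was at 4961 against 7502 CPM and 4107 against 6483 CPM. Mertk, a receptor for engulfing dying cells, was at 107 against 219 CPM and 99.6 against 614 CPM. Genes outside those groups were lower too. The sheddase Adam17 was at 75.2 against 164 CPM and 77.5 against 162 CPM, the G protein subunit Gng2 at 91.0 against 167 CPM and 77.5 against 239 CPM, and the tetraspanin Cd63 at 206 against 454 CPM and 188 against 355 CPM. Adam17 had 7 and 25 UMIs under the wild type label, and the interval of its log2 ratio there, -2.51 to 0.190, includes no difference. By list, 6 of 18 tissue macrophage genes and 3 of 7 MHC class II genes were lower in both libraries and 0 of either higher. Higher were 5 of 14 monocyte genes, 4 of 20 hypoxia genes, 4 of 13 matrix genes and 4 of 15 chemokine genes, the last with 1 lower. The medians over all measured genes were 0.03 under the knockout label and 0.08 under the wild type label.

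**Figure D4:**
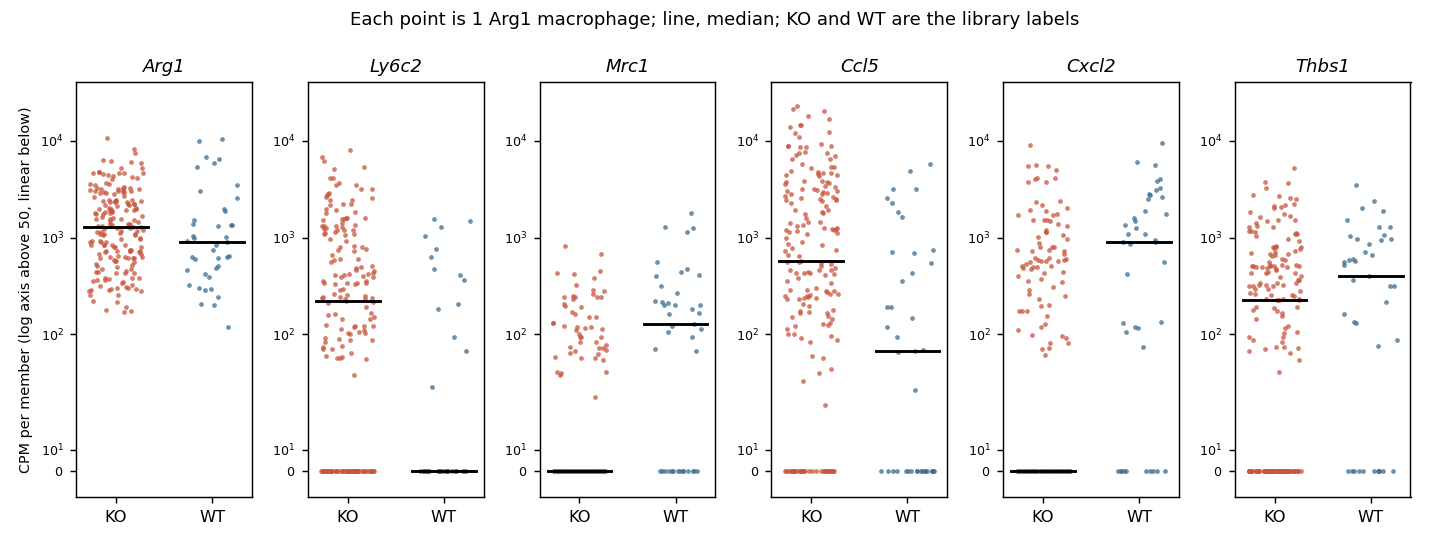
Level in CPM of Arg1, Ly6c2, Mrc1, Ccl5, Cxcl2 and Thbs1 in each Arg1 macrophage, on an axis that is logarithmic above 50 and linear below, with the library labelled knockout left of the library labelled wild type. Each point is 1 cell and lines are medians. The range of Arg1 overlaps between the labels, the median of Ccl5 is 569 CPM under the knockout label and 66.6 CPM under the wild type label, and that of Cxcl2 is 0 and 896 CPM.

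Between the labels, members of the library labelled knockout had higher levels of several MHC class I and interferon genes, of Ass1, Slc7a2, Arg2 and Nos2 among the arginine genes, and of Ccl5. Levels of 10 other chemokine and receptor genes and of Mrc1, Maf and Selenop were lower, and Arg1 was at 1683 and 1629 CPM. At 1.5-fold or more, 481 (11.2%) of the 4289 measured genes were higher under the knockout label and 304 (7.09%) were lower, with a median log2 ratio of 0.02. With 41 members on one side, several of these differences rest on few cells. The counts without the member that held most UMIs of each gene were 787 higher and 169 lower, an alternative chosen after seeing the data that moves the median of all genes to 0.16. In Y-linked members alone the counts were 129 higher and 184 lower. The measured genes were set anew there from fewer UMIs, so these 2 counts are not out of the 4289 genes and show no fall in share.

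Within arginine metabolism Ass1, Slc7a2, Arg2 and Nos2 differed between the labels. Arg1, which the rule sets in part, was at 1683 and 1629 CPM. Past 1.5-fold, 4 of the 11 measured genes were higher and 0 lower under the knockout label, and the median was 0.20. Ass1, which rebuilds arginine from citrulline, was at 336 CPM in 160 of 187 members under the knockout label and 102 CPM in 21 of 41 members under the wild type label (log2 ratio 1.71, 1.29 to 2.17). Slc7a2 was at 242 against 69.8 CPM (1.79, 1.28 to 2.35), and Arg2, the mitochondrial arginase, at 67.0 against 15.3 CPM (2.14, 1.06 to 3.47). Nos2, which turns arginine into nitric oxide, had 172 UMIs in 32 members under the knockout label and 6 UMIs in 2 members under the wild type label, or 73.4 against 13.1 CPM (2.49, 1.34 to 3.96). After thinning, Nos2 was found in 7.49% and 4.88% of members, and before it in 17.1% and 4.88%, against 0.628% and 0.335% of the T cell gate. Odc1, which makes polyamines from ornithine, was at 83.7 and 80.7 CPM, and Sat1, which acetylates polyamines for export, at 401 and 562 CPM (-0.49).

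The Nos2 transcripts under the knockout label were concentrated in cells with Y-linked UMIs. Those 16 members held 103 of the 172 Nos2 UMIs, at 409.9 CPM, against 30.5 CPM in the 150 members with Xist UMIs alone and 0 UMIs in the 37 Y-linked members under the wild type label. Ass1 had no such split. It stood at 338 CPM in the Y-linked and 340.1 CPM in the Xist members under the knockout label, and 93.3 CPM in the Y-linked members under the wild type label. Beyond the members, Nos2 was at 18.4 against 5.01 CPM in the Mmp12 gate and 72.8 against 9.58 CPM in the Ly6c2 gate. Ass1 was at 213 against 77.0 CPM in the Mmp12 gate and 351 against 298 CPM in the Ly6c2 gate.

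Among chemokines and their receptors, 10 of 19 measured genes were at least 1.5-fold lower and 2 higher under the knockout label, and the median was -0.76. Cxcl2 was at 496 CPM in 84 of 187 members under the knockout label and 1345 CPM in 31 of 41 members under the wild type label (-1.44, -1.58 to -1.30). Ccl6, a chemokine of rodent myeloid cells, was at 205 and 709 CPM (-1.79), and Ccl4, a chemokine of activated macrophages, at 284 and 558 CPM (-0.98). Ccr2 was at 266 and 464 CPM (-0.81). For Ccl7 and Ccl8 the level rested on few cells: Ccl7 had 178 UMIs in 22 members under the knockout label and 140 in 8 under the wild type label, with 88 and 95 in 1 cell each, and Ccl8 had 23 UMIs in 7 members and 79 in 5. Ccl2, at 136 and 329 CPM (-1.28), was at -0.35 without its top member in each library and at -0.33 without the members high in border macrophage markers. The list median was -0.25 without those members, and Cxcl2 stood at -1.68. In Y-linked members Ccl2 was at -3.66 and Cxcl2 at -2.78, with 7 and 48 UMIs in 5 members each under the knockout label.

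Ccl5 and Cxcl9, which attract T cells, were the 2 chemokines higher under the knockout label. Ccl5 was at 2173 CPM in 155 of 187 members under the knockout label and 517 CPM in 23 of 41 under the wild type label (2.07, 1.88 to 2.27). T cells carry Ccl5 too, at 2175 CPM in their gate under the knockout label and 2014 CPM under the wild type label. The rule caps Cd3e and Cd3d, and the part of T cell RNA in the Ccl5 level of members was not tested. Cxcl9 was at 1196 CPM and 510.2 CPM (1.23, 1.04 to 1.43). In the Ly6c2 gate Ccl5 was at 2830 and 621 CPM, and in the Mmp12 gate at 234 and 117 CPM. In Y-linked members Ccl5 stood at 4907 CPM under the knockout label and 464 CPM under the wild type label. The Xist members had 1552 CPM.

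MHC class I and interferon genes were on the median higher under the knockout label. In the list of MHC class I and immunoproteasome genes, 10 of 22 measured were at least 1.5-fold higher and 0 lower, with a median of 0.58. H2-K1, a classical class I heavy chain, was at 2524 and 1720 CPM (0.55), and H2-Q7, a non-classical one, at 621 and 257 CPM (1.27). B2m, the shared light chain, was at 3613 and 2819 CPM (0.36), and Psmb9, an immunoproteasome subunit, at 339 and 209 CPM (0.70). The H2-Q genes are close copies of each other, and the counting may have divided their reads. Of 28 type I interferon genes, 12 were higher and 2 lower, with a median of 0.55. Ifitm3, an antiviral membrane protein, was at 3233 and 1827 CPM (0.82, 0.72 to 0.93), and Irf7, a transcription factor of the interferon response, at 457 and 268 CPM (0.77). Ifi207 and Ifit1 went the other way, at 205 against 364 CPM (-0.83) and 49.1 against 74.1 CPM (-0.59). In Y-linked members the list medians were 0.35 for MHC class I and 0.20 for the interferon genes, against a median of -0.09 over all genes. MHC class II genes stayed within 1.5-fold in 7 of 7, with H2-Ab1 at 6159 and 5272 CPM (0.22).

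Ifi202b, an interferon-inducible gene of the Ifi200 cluster, had 386 UMIs in 135 of 187 members under the knockout label and 0 UMIs under the wild type label, in members and in each of the other 6 gates. Against 3 counts in the wild type library this is at least 25.2-fold higher. Acod1, which makes the antimicrobial metabolite itaconate, was at 260 CPM in 120 members and 45.8 CPM in 10 members (2.51, 1.88 to 3.21). It was at 165 and 35.6 CPM in the Mmp12 gate and 482 and 219 CPM in the Ly6c2 gate. Acsl1, a fatty acid activating enzyme of inflamed macrophages, was at 95.7 and 17.4 CPM (2.46). Cd40, the costimulatory receptor, was at 102 and 24.0 CPM (2.09), and Cd274, which encodes PD-L1, at 509 and 262 CPM (0.96). Slpi, a protease inhibitor, had 214 UMIs in 28 members under the knockout label, 125 of them in 1 cell, and 1 UMI under the wild type label.

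Tissue macrophage genes differed unevenly, with 5 of 22 at least 1.5-fold lower and 3 higher under the knockout label and a median of -0.18. Mrc1 was at 58.5 CPM in 54 of 187 members under the knockout label and 320 CPM in 27 of 41 members under the wild type label (-2.45, -2.80 to -2.11). Maf, a transcription factor of resident macrophages, was at 53.0 and 242 CPM (-2.19), and Selenop, a selenium carrier protein, at 94.8 and 351 CPM (-1.89). Pf4, a platelet-type chemokine also made by resident macrophages, was at 36.7 CPM in 31 members and 340.1 CPM in 19 members (-3.21). Mertk was at 166 and 312 CPM (-0.91), and Apoe, a lipid carrier, at 13820 and 17040 CPM (-0.30). In Y-linked members the ratio was -4.72 for Mrc1, -2.69 for Maf, -2.33 for Selenop and -4.44 for Pf4. These ratios rest on 16 members under the knockout label, where Mrc1 had 3 UMIs and Pf4 4 UMIs, in 3 cells each. F13a1, also on the border macrophage list, was at -1.95 over all members and at -0.26 in Y-linked members. Members high in border macrophage markers numbered 7 under the knockout label and 10 under the wild type label. They were chosen by a list that holds Mrc1 and Pf4, so the Mrc1 value without them is set in part by that choice; Maf, Selenop and S100a4 are not in the list. Without these members the ratio was -1.80 for Mrc1, -1.18 for Maf and -1.24 for Selenop, which were still lower under the knockout label. The calcium-binding S100a4, at 52.5 and 203 CPM (-1.95), was at -0.63 without them.

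Among monocyte genes 6 of 18 were higher and 4 lower, with a median of 0.25 and with Ly6c2 (599 and 135 CPM, 2.15) and Ly6i (709 and 168 CPM, 2.08) at the upper end. Inflammatory cytokine genes were higher in 4 of 12 and lower in 0: Il1a stood at 299 and 174 CPM (0.78) and the receptor antagonist Il1rn at 477 and 292 CPM (0.71), while Il1b differed by 0.15. In Y-linked members the ratio was -0.29 for Il1a, 0.09 for Il1rn, 1.43 for Ly6c2, 2.81 for Ly6i and -2.56 for osteopontin (Spp1). The list medians there were -0.42 for monocyte genes, -0.22 for inflammatory cytokines and 0.53 for iron and oxidative stress genes, against -0.09 over all genes. Matrix genes were higher in 3 of 18 and lower in 5. Tgm2, a protein cross-linking enzyme, was at 974 and 423 CPM (1.20), and Spp1 at 357 and 876 CPM (-1.29). Iron and oxidative stress genes were higher in 3 of 16 and lower in 5. The ferritin chains parted, with the heavy chain Fth1 at 20531 and 13565 CPM (0.60) and the light chain Ftl1 at 4179 and 6364 CPM (-0.61). Hmox1, which degrades heme, was at 45.7 and 111 CPM (-1.28), and the mitochondrial superoxide dismutase Sod2 at 401 and 187 CPM (1.10).

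Lipid handling genes past 1.5-fold were 4 higher and 3 lower of 15 (median 0.03), and alternative activation and scavenger genes 3 and 3 of 13 (median -0.40). Interferon gamma GTPases were higher in 3 of 12 and lower in 0 (median 0.34, and -0.29 in Y-linked members). Innate receptors were higher in 2 of 22 and lower in 3, Fc and complement genes in 1 and 2 of 15, growth factors in 2 and 1 of 6, and integrated stress response genes in 2 and 1 of 7. Cell division genes were higher in 1 of 5 and lower in 0, and sterol synthesis genes in 0 and 1 of 5. Hypoxia and glycolysis genes were higher in 2 of 27 and lower in 0, with the glucose transporter Slc2a1 at 219 and 124 CPM (0.82). Oxidative phosphorylation genes were higher in 3 of 34 and lower in 1, lysosomal genes higher in 0 of 20 and lower in 2, and transcription factors higher in 4 of 33 and lower in 2, with Cebpb at 1501 and 1535 CPM. The immediate early and heat shock list had 4 of 19 lower and 0 higher. Of 16 checkpoint and costimulation genes 2 were higher and 1 lower. The medians of these lists lay between -0.40 and 0.34. Over all 4289 measured genes, 11.2% were higher and 7.09% lower, and several of these lists, such as oxidative phosphorylation, innate receptors and transcription factors, held shares near those.

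**Figure D5:**
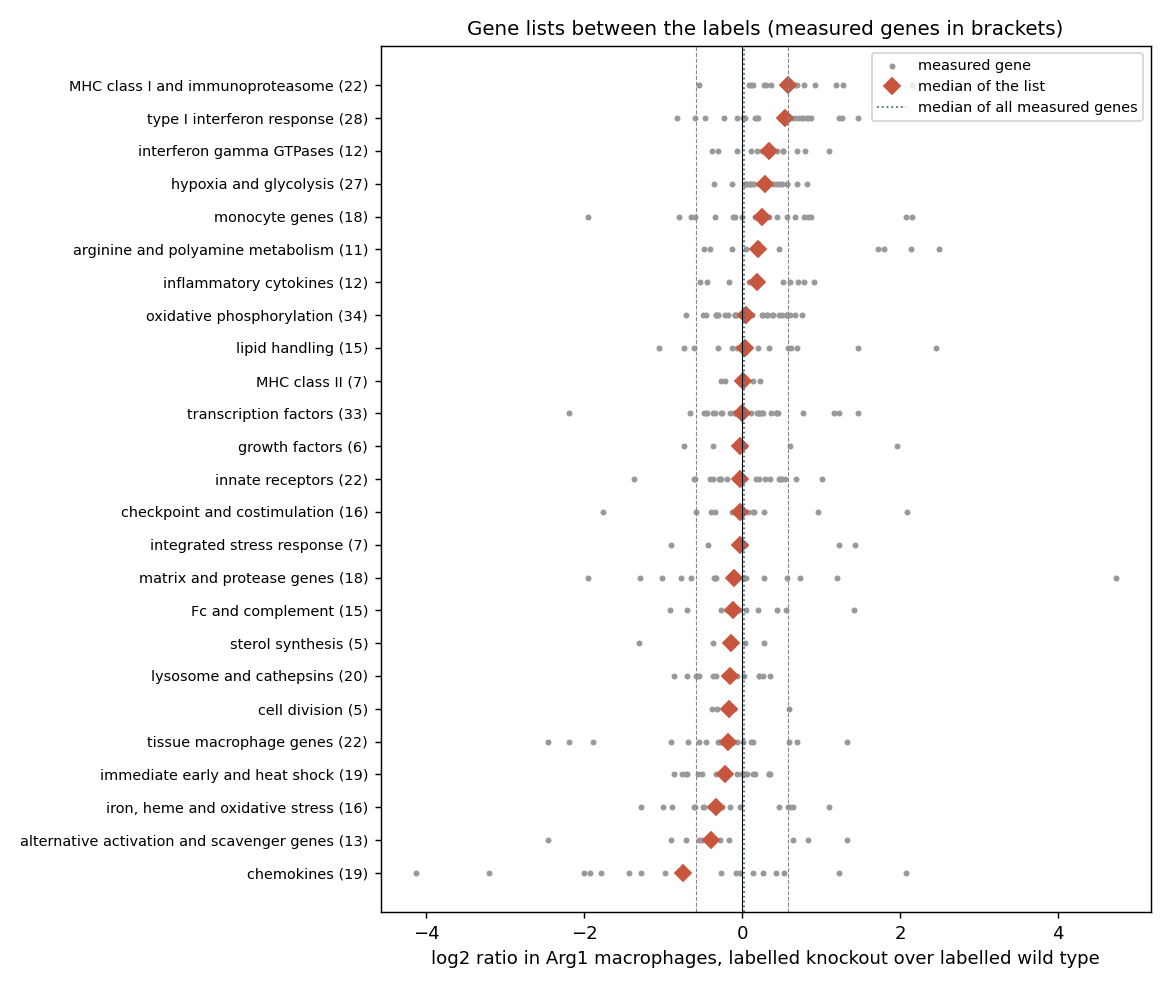
Log2 ratio of summed CPM in Arg1 macrophages, labelled knockout over labelled wild type, for the measured genes of 25 lists. Grey points are genes, diamonds are list medians, the dotted line is the median of all 4289 measured genes (0.02) and dashed lines mark 1.5-fold. MHC class I and immunoproteasome genes have the highest median (0.58) and chemokines the lowest (-0.76).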

How the data were processed

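The authors deposited UMI counts per gene and barcode for 2 libraries made with the 10x Genomics 3′ v3.1 kit from dissociated brain, per the labels' protocols. They were made with Cell Ranger 7.1.0, and Seurat 5.0.2 and mm10 are also named, per the submitters' processing notes. Of the 68886 genes listed, human and mouse together, the 32285 mouse genes were used.

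Kept barcodes had 500 or more mouse genes and no more than 10% mitochondrial UMIs; 1239 and 3990 barcodes had too few genes and 555 and 282 too many mitochondrial UMIs in the libraries labelled knockout and wild type. The members, gates, gene lists and naming rule were chosen with earlier results of these data known. Counts were summed over the cells of a gate and divided by the mouse UMIs of the gate to give CPM. Ratios carry exact 95% intervals conditional on the summed counts, single levels exact Poisson intervals and shares Clopper-Pearson intervals. Molecules, not cells or animals, are counted by these intervals. Genes with at least 100 UMIs over the 2 groups of cells compared were measured, except that the comparison of Arg1-rich with Arg1-poor members required 20 UMIs in the wild type library. Calls were made by size alone: 1.5-fold between labels and along Arg1, 2-fold in the same direction in both libraries between gates, with 3 counts in place of 0. The gates other than the members were set by their own genes at 3 or more UMIs (Flt3 at 2 or more, the Mmp12 set at 5 or more). Named genes were the 10 highest and 10 lowest between labels with at least 50 CPM on the higher side and at least 20% of the level in any other gate, the 12 highest and 6 lowest against each gate, the extremes and most abundant members of each list, and the genes that differed most along Arg1. Other genes given were chosen from the lists after their values were seen, and a few genes that the rule names are not reported here.

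Scrublet in scanpy 1.11.5 placed 346 and 77 cells at the expected doublet rate, among them 2 of 187 and 0 of 41 members; doublets were kept in the main values and removed in an alternative. The automatic threshold marked 163 cells (2.48%) and 9 cells (0.289%), and the 9 are too few for it to have worked. Alternatives were a mitochondrial limit of 5%, Arg1 minimums of 10 and 1, the rule on cells thinned to 5000 UMIs, median-of-ratios scaling, cells weighted alike, genes with at least 20 UMIs and Y-linked members only. Leaving out members high in border macrophage markers (10 or more UMIs) and leaving out each gene's top member were chosen after seeing the data. The work was done in Python 3.11.15 with pandas 2.3.3, scipy 1.17.1, numpy 2.4.6 and matplotlib 3.10.9. The ratios between labels and their intervals were tested on simulated Poisson counts, which hold no spread between cells. The gates and sums were not tested in this way. Positions came from GENCODE M21, and promoters from RefSeq (GRCm38.p6).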

Additional observations from a re-analysis of the deposited data

Results flagged for a closer look

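Acsl1, which activates fatty acids, was higher in Arg1 macrophages than in the Mmp12 gate in the library labelled knockout (log2 ratio 0.84) and lower in the library labelled wild type (-1.08). Ctsd, a lysosomal protease, ran the other way, at -0.91 under the knockout label and 0.77 under the wild type label. Against the Ly6c2 gate, Ccl2 stood at -1.02 under the knockout label and 1.31 under the wild type label, and Ccl9, a myeloid chemokine, at -1.13 and 1.21. Each gene stood out because its direction was opposite in the 2 libraries, and the difference between libraries was not tested. Genes of the human reference, which no comparison used, had 310 UMIs in 144 members under the knockout label and 50 UMIs in 28 members under the wild type label. Their source was not tested.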

How the results depend on the processing

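No paired analysis was possible because there was 1 library per label, and for the same reason no replicate could be left out. Over the named genes and alternatives, 1882 values stayed within their counting interval, 351 moved and 6 reversed; for lists, 960 stayed and 87 moved. With a minimum of 10 Arg1 UMIs the log2 ratio of shares was 1.77, Plac8 stood at -0.0302 and Rsad2 at -1.01 between the labels, and 16 genes were lower than in the Ly6c2 gate. With a minimum of 1 Arg1 UMI, 15 genes were higher than in the Ly6c2 gate. With the rule on thinned cells, 181 genes were higher and 164 lower between the labels, 64 higher and 50 lower against the Mmp12 gate and 12 lower against the Ly6c2 gate. With genes of at least 20 UMIs these were 1530 and 1024, 199 and 293, and 37 higher and 62 lower, since more genes of low count were included. In Y-linked members only, the log2 ratio of shares was -0.0471, 129 genes were higher and 184 lower between the labels, Ifi27l2a stood at -0.78 and Il1a at -0.29. Without the top member for each gene 787 were higher and 169 lower, Apod stood at -1.35 and Hspa1b at 0.0350. Apart from the thinned rule and the low-count genes, where fewer cells or more genes enter by construction, the cause of these shifts was not tested. With thinned cells and with Y-linked members only, the measured genes were set anew from fewer UMIs. Those counts therefore cannot be set beside the main counts as shares of the same genes. The 41 members under the wild type label held 458686 UMIs in all, so genes with few UMIs there could not be compared.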

Other observations

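Cacna1d, an L-type calcium channel gene outside the T-type family named in the title of the series, was read in most myeloid gates. It stood at 222 CPM in Arg1 macrophages, 172 CPM in the Ly6c2 gate, 139 CPM in the microglia gate and 26.6 CPM in the Mmp12 gate under the knockout label. Under the wild type label it stood at 159 CPM in Arg1 macrophages, 54.3 CPM in the Ly6c2 gate, 136 CPM in the microglia gate and 35.6 CPM in the Mmp12 gate. The T cell gate held 13.4 and 12.5 CPM. Between the labels the ratio in Arg1 macrophages was 0.48 on the log2 scale, and 0.10 without the members high in border macrophage markers.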
